A study of Mus musculus with 16 samples.

Results

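Grb10 is described here through the methylation of its CpGs in immortalised mouse embryonic fibroblasts, with the transcript starts of the gene kept apart. The members were the CpGs on chromosome 11 between the end of Grb10 (ENSMUSG00000020176; GENCODE M21, mm10, 11930508 to 12038683, minus strand) and 5000 bp upstream of its start. These were 169 of the 1203687 CpGs with at least 10 reads in every library, out of 1221 CpGs in the reference sequence of the same interval. The 1203687 CpGs lie on 16 chromosomes, because the authors had left out the sex chromosomes and those they found aneuploid. The rule used position and read depth, although the gene itself was picked with earlier results of these data known.

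The libraries came from 2 sibling C57BL/6J embryos of E13.5, a male (MEF-1) and a female (MEF-2), whose fibroblasts were immortalised by serial passage. Each parental line was sequenced once and is a mixture of cells. From each, 7 clonal lines were grown out of single sorted cells. The term family stands for a parental line together with the clones taken from it. All groups share the strain and the immortalisation by passage, and no treatment is named for any of them. Target capture bisulfite sequencing (tcBS-seq) reads, in unmethylated and methylated reads, the CpGs that capture probes cover. The methylation level of a CpG is the percentage of its reads called methylated, and it averages the maternal and paternal copies, which this inbred strain does not allow to be told apart. All lines of a family come from the same embryo and culture, so a p-value between families measures the spread between lines, and the embryo, its sex and the culture history cannot be told apart.

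Grb10 encodes an adaptor protein that binds the activated insulin and insulin-like growth factor receptors and restrains growth signalling. The gene is imprinted. In most tissues, fibroblasts among them, transcripts of the maternal copy begin at the upstream major promoter. A CpG island further downstream is methylated in the oocyte, keeps that mark on the maternal copy, and serves in neurons as the promoter of the paternal copy. An imprinted island is therefore known for a level near 50%, whereas an island at an active promoter is usually unmethylated on both copies.

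The 9 annotated starts formed 8 groups, in which starts within 500 bp of each other were joined. Sequence alone gave 2 CpG islands. The upstream island (chromosome 11, 12036360 to 12038158, 217 CpGs, 45 of them measured) holds the start of Grb10-201 at 12037401, called the major promoter. The downstream island (12025411 to 12026723, 143 CpGs, 18 measured) holds the start of Grb10-209 at 12026324 and ends just before that of Grb10-207 at 12026732, and these starts are called the downstream promoter. A single start further upstream, that of Grb10-206 at 12038683, lay just outside the upstream island and is called the upstream start. Within 500 bp of a start, the major promoter had 19 measured CpGs, the downstream promoter 11 and the upstream start 10. The other 5 start groups had none. The major promoter was seen only from 311 to 487 bp before its start, in sequence that is intronic for Grb10-206, and 10 of the 11 CpGs of the downstream promoter lay in the non-coding exon of Grb10-209. The remaining 129 CpGs were elsewhere in the gene, and by position all 169 fell into 7 stretches with gaps of more than 1500 bp between them.

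The stretches below are read from GRCm38 (RefSeq) on the minus strand, 5′ to 3′, and the capitals mark the measured CpGs. They show the intronic edge of the downstream island with 8 measured CpGs (chr11:12025672-12025837), the measured part of the major promoter with all 19 (chr11:12037708-12037892), and an intronic stretch with 6 CpGs (chr11:11973402-11973610), whose family means lay at 40 to 60% except at 11973507, where MEF-1 had 83.1%.
downstream island, intronic edge: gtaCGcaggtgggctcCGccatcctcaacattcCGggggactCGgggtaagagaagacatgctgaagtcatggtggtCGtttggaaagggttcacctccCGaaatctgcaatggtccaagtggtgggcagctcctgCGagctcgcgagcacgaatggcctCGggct
major promoter: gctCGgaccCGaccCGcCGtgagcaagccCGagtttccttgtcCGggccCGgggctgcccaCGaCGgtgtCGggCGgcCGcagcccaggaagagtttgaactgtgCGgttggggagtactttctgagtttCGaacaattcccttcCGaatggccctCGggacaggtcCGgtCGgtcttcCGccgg
intronic stretch: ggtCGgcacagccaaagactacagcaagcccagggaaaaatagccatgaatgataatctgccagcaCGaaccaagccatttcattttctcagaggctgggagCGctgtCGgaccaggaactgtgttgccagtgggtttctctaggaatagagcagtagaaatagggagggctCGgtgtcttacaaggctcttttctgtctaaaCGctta
The major promoter holds its 19 measured CpGs within 177 bp, with no unmeasured CpG among them, and the intronic stretch holds 6 in 209 bp and no other CpG. The letters TGCCGC, which are those that the imprint-keeping factor ZFP57 binds when methylated, were searched on both strands within 500 bp of each start. They occurred 4 times around the start of Grb10-209, 1 time around that of Grb10-207 in an overlapping window, and 3 times around that of Grb10-201. Of 88154 such windows around start groups of all genes, 19.3% held a match, 0.486% held as many as Grb10-209 and 1.52% as many as Grb10-201. The motif itself contains a CpG, and these windows were not matched for CpG density. The shares are therefore no scale for starts that lie in CpG islands. Over the islands themselves there were 5 matches in the upstream and 4 in the shorter downstream island. None of the 3 printed stretches held it, and no match is taken here as a bound site.

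The downstream promoter was methylated at about 50% in both families, and the difference between them did not pass the test. The MEF-1 clonal lines ranged from 40.4% (line 5) through a median of 54.4% to 64.9% (line 2), and their mean was 54.8% ± 7.99 (SD, n = 7). The MEF-2 clonal lines ranged from 44.8% (lines 1 and 4) through a median of 56.8% to 70.5% (line 7), with a mean of 54.4% ± 9.85 (SD, n = 7). The parental lines had 53.4% and 54.0%, and pooled over their reads 53.7% (95% Wilson interval 48.2 to 59.2%, 309 calls) and 55.0% (49.7 to 60.2%, 338 calls). These intervals take every call as separate, although the same read can hold several neighbouring CpGs. They are thus too narrow even for counting error, and they cover nothing else. In each family 5 of 7 clonal lines lay at 40 to 60%. The distance from 50% was 4.82 points in MEF-1 (two-sided exact sign-flip test over 7 lines, p = 0.172) and 4.39 points in MEF-2 (exact p = 0.281), where 0.0156 is the smallest p that 7 lines allow. The MEF-1 distance changed with the CpGs taken, to 9.10 points over the island or within 1000 bp (exact p = 0.0313) and to −2.04 points with a minimum of 5 reads (exact p = 0.578), and it was 3.14 points without line 2 and 7.22 points without line 5 (exact p = 0.0313). The MEF-2 distance was 1.69 points with a minimum of 5 reads and 1.72 points without line 7. Between families the difference was 0.431 points (two-sided exact permutation test of 7 against 7 lines, p = 0.934). Over the downstream island it was 5.43 points (59.1% in MEF-1, 53.7% in MEF-2, exact permutation p = 0.136).

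The major promoter was lower than the downstream promoter in all 14 clonal lines, and its level differed between the families. In MEF-1 it ranged from 8.59% (line 4) through a median of 12.3% to 16.1% (line 7), with a mean of 12.1% ± 3.12 (SD, n = 7). In MEF-2 it ranged from 27.1% (line 7) through a median of 32.1% to 35% (line 5), with a mean of 30.8% ± 2.93 (SD, n = 7). The families did not overlap, and MEF-1 was 18.7 points lower (exact permutation over lines, two-sided, p = 0.000583, which no split of 7 against 7 can go below). The size of the difference depended on the CpGs taken, and its direction was not the same at every CpG. At most island CpGs past the start (12036402 to 12036577) the clonal mean was higher in MEF-1. Of the 45 island CpGs 14 were called (31.1%, against 20.2% of all CpGs), 12 higher in MEF-2 and 2 in MEF-1. The island values below average over both directions. Over the 45 CpGs of the island MEF-1 had 15.4% and MEF-2 22.1%, a difference of −6.71 points with no overlap (exact permutation test, p = 0.000583), and within 1000 bp of the start it was −8.33 points. With the reads of the island pooled, which was added once the data had been seen, the families overlapped (MEF-1 up to 19.4%, MEF-2 from 17.3%) and MEF-1 minus MEF-2 came to −2.98 points (two-sided exact permutation, p = 0.0297). Parental levels were 8.27% and 26.4%, and every clonal line lay above its own parental library, which has no replicate. With reads pooled over the CpGs this did not hold for MEF-1 line 4 (6.96% against 7.14%) and MEF-2 lines 1 and 7 (24.1 and 22.3% against 25.4%). The upstream start had 16.9% ± 3.28 in MEF-1 and 28.4% ± 6.74 in MEF-2 (means ± SD, 7 lines each), a difference of −11.5 points (exact permutation test, p = 0.00233). There MEF-1 line 4, at 23.4%, was above MEF-2 lines 1 (19.9%) and 4 (21.1%), so that the families overlapped.

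**Figure D1:**
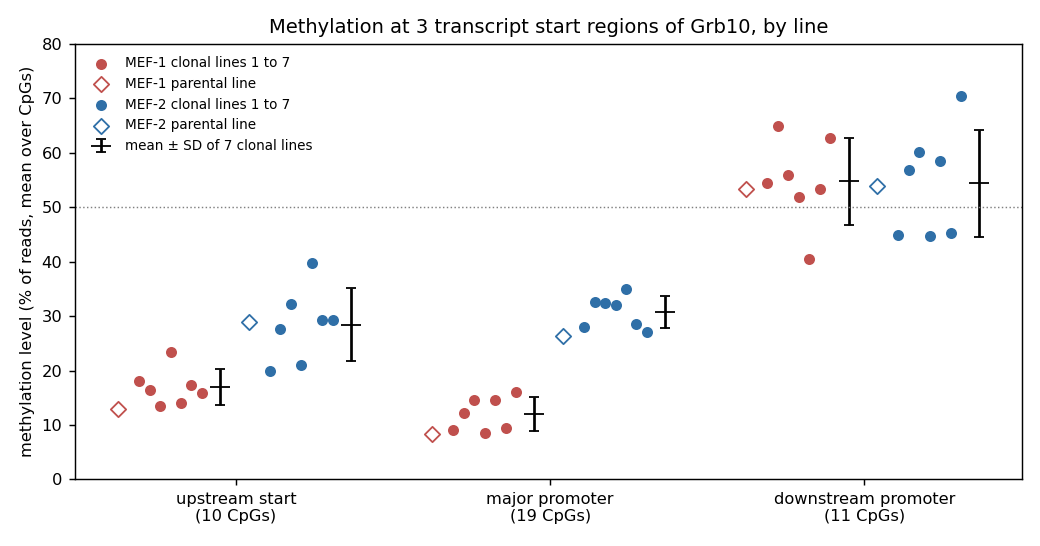
Methylation level (% of reads, mean over the CpGs within 500 bp of a start) at 3 start groups of Grb10, with a point for each clonal line, a diamond for each parental line and bars for mean ± SD of 7 clonal lines. The families overlap at the downstream promoter and are separate at the major promoter, where MEF-1 lines reach at most 16.1% and MEF-2 lines at least 27.1%.

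In a model over all start groups with at least 5 CpGs (quasi-binomial logistic regression of summed reads, F-test), the major promoter and the upstream start passed the test and the downstream promoter did not. Adjusted p-values (Benjamini-Hochberg over 21478 start groups) were 2.21e-05, 0.00465 and 0.899. In the same model 41.2% of all start groups were called, 15.4% as higher in MEF-2, so a called start group is common in these families. Within lines, the downstream promoter exceeded the major promoter by 42.7 points ± 8.29 (SD, n = 7) in MEF-1 and by 23.6 points ± 10.2 (SD, n = 7) in MEF-2. The direction held for 7 of 7 lines, and both families gave p = 0.0156 (exact sign-flip, two-sided). The gap was smallest in MEF-1 line 5 (25.8 points) and MEF-2 line 4 (12.7 points), and largest in MEF-1 line 2 (52.7 points) and MEF-2 line 7 (43.3 points). It was 19.1 points wider in MEF-1 (exact permutation test, p = 0.00524), and 12.1 points wider when each promoter was taken over its island (exact p = 0.00874). Relative coverage, which is the coverage scaled to the median chromosome and to the median MEF-2 clonal line, was 1.10 to 1.78 at the major promoter in MEF-1 and 0.975 to 1.15 in MEF-2 clonal lines. Its part in the difference was not tested. Chromosome 11 itself lay between 0.990 and 1.03 in all libraries except MEF-1 line 6 (0.906).

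At the level of single CpGs, 42 of the 169 differed between the families (quasi-binomial model, adjusted p under 0.05), which is 24.9% against 20.2% of all CpGs tested. Of these, 14 were higher in MEF-1 (11.6% of all CpGs were) and 28 in MEF-2 (8.53%). At the major promoter 8 of 19 were called, all higher in MEF-2. At the upstream start there were 6 of 10, 5 of them higher in MEF-2, and at the downstream promoter 1 of 11. The groups did not overlap at 17 of the 169 CpGs, while 9.41% of all CpGs were without overlap. Of the 17, 5 were in the major promoter and none in the downstream promoter.

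At 6 of the 8 called CpGs of the major promoter the MEF-2 mean lay at 40 to 60% while the MEF-1 mean was under 20%. The CpG at 12037877, 476 bp before the start, had the largest difference of the promoter. Its level ranged from 0 through a median of 0 to 7.69% in MEF-1 (4 of 216 reads) and from 30.4 through 42.1 to 62.5% in MEF-2 (65 of 144 reads). The difference was −44.0 points (quasi-binomial model, adjusted p = 4.34e-05), and the parental lines, at 2.63 and 37.9%, stood on the same sides. The other 11 CpGs of the promoter were not called. Among them that at 12037712, which is the measured CpG closest to the start and had the lowest fidelity score of the promoter, ranged from 33.3 through 52.4 to 73.3% in MEF-1 and from 36.8 through 57.1 to 69.2% in MEF-2 (adjusted p = 0.961, quasi-binomial model). The mean level of both families was at 40 to 60% at 2 of the 19 CpGs and under 10% at 3.

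Over the whole stretch of 78 CpGs from the upstream start to 1986 bp past the major start, 28 were called (35.9%), 21 of them higher in MEF-2. Of all CpGs 20.2% were called, 8.53% as higher in MEF-2. At 12 called CpGs MEF-2 was at 40 to 60% with MEF-1 under 20%, and at 4 the families were exchanged. Neither pattern was counted over all CpGs, so these counts, like those at the major promoter, have no share to stand beside. A CpG at 12038446 was of the latter kind, with 43.1 to 61.2% in MEF-1 and 0 to 38% in MEF-2 (difference 38.5 points, adjusted p = 0.00164, quasi-binomial model). One at 12038216 was of the former, with 2.13 to 12.0% in MEF-1 and 34.5 to 51.7% in MEF-2 (−34.3 points). Both were chosen after their values were seen. CpGs with levels near 50% in a single family thus lay among CpGs under 10% in both, of which there were 14.

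**Figure D2:**
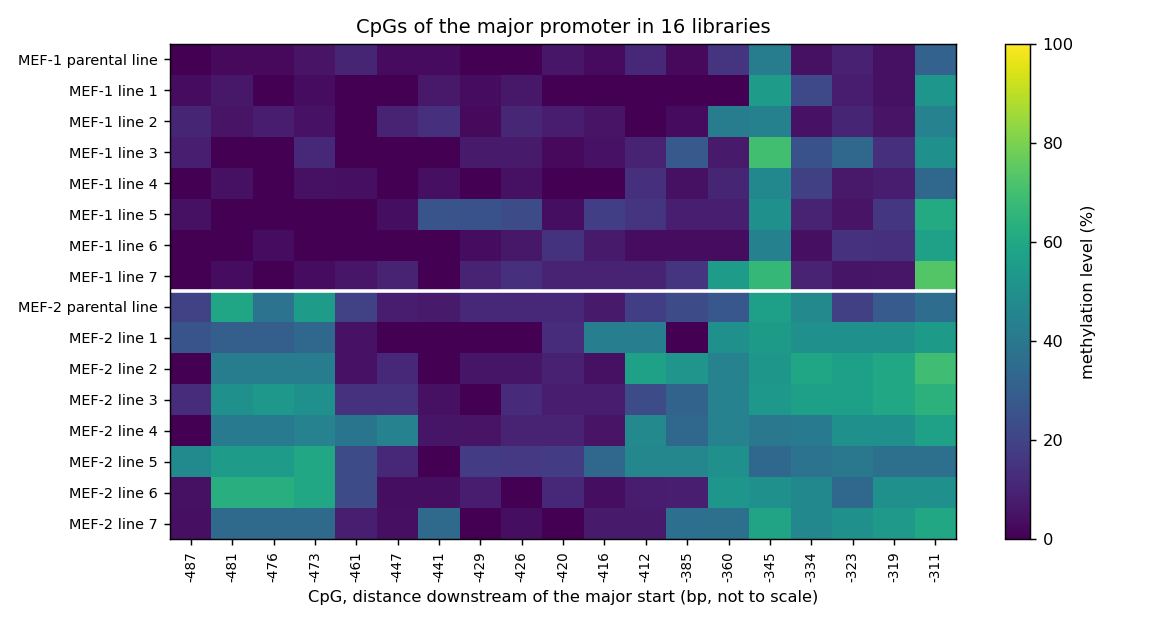
Methylation level of the 19 CpGs of the major promoter in 16 libraries (colour, 0 to 100%), ordered by distance from the start. The MEF-2 libraries have columns near 50% where the MEF-1 libraries are close to 0, as at the CpG 476 bp before the start (1.56% against 45.6% in the clonal lines).

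**Figure D3:**
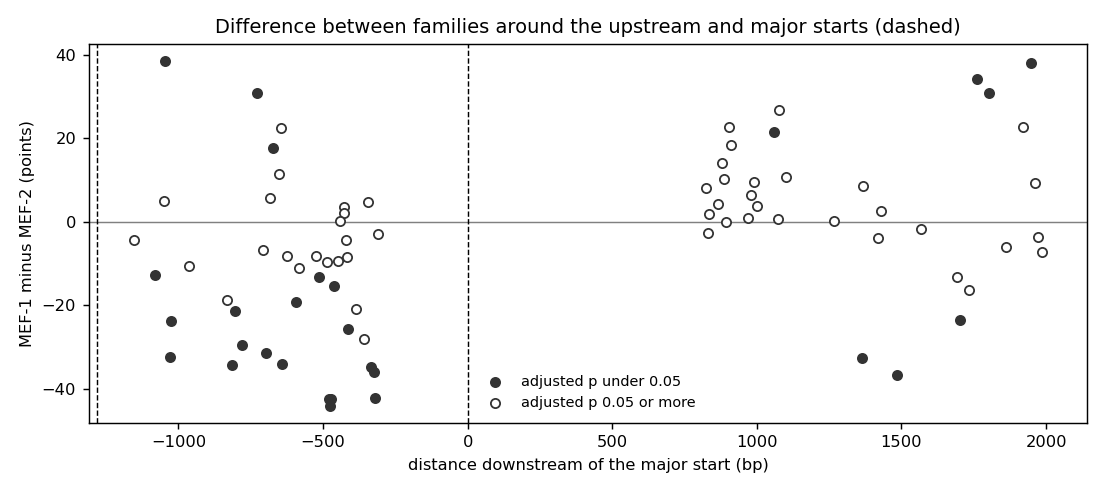
MEF-1 minus MEF-2 difference of mean clonal level (percentage points) for 78 CpGs against the distance from the major start in bp. Filled points are CpGs with an adjusted p under 0.05 (28 CpGs), of which 21 are higher in MEF-2.

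Inside the downstream promoter the mean of 8 of the 11 CpGs lay at 40 to 60% in both families, while single lines departed from it. Between 2 of 11 CpGs (MEF-2 line 4) and 10 of 11 (MEF-1 line 6) were at 40 to 60% in a line. With 11 to 34 reads at the median CpG, read sampling from a true level of 50% would place 49.4 to 76.6% of them there. In MEF-2 lines 4 and 5 the observed shares were 18.2 and 27.3%, against 68.8 and 63.5% from sampling, while MEF-1 line 6 had 90.9% against 62.2%. The observed share was above that from sampling in MEF-1 lines 3, 4 and 6 and MEF-2 line 2, and below it in the other clonal lines. Sampling was computed for each CpG on its own, but nearby CpGs can lie on the same reads and move together. These shares therefore cannot show a departure beyond sampling. The fidelity score counts, as a share of all 14 clones, those at 0 to 10, 40 to 60 or 90 to 100%, the levels that a founder cell with 2 copies could pass on unchanged. It averaged 0.617 at the downstream promoter, 0.752 at the major promoter and 0.750 at the upstream start, against 0.833 over all CpGs of the table. At a true level of 50%, read sampling would place 49.4 to 74.4% of the downstream promoter CpGs of a clonal line at 40 to 60%. The score of 0.617 there also counts clones at 0 to 10 or 90 to 100%, so it cannot be set directly against that share. Whether it lies below what sampling would give was not tested, and it is not read as low fidelity. The depth behind these regions differs, and its part in the scores was not tested.

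Which CpGs departed differed from line to line. In MEF-2 line 5 the CpG at 12026121 had 93.3%, while the other MEF-2 clonal lines had 29.6 to 59.4%. In that library the CpGs 8 and 10 bp away were at 37.5 and 41.2%, and those 20 and 31 bp away at 93.8 and 100%. The lowest fidelity score of the promoter, 0.5, was shared by the CpGs at 12025847 and 12026172. The former ranged from 21.1 through 50.0 to 81.2% in MEF-1 and from 23.5 through 47.4 to 81.0% in MEF-2, and the latter from 34.8 to 63.2% and from 30.8 to 66.7%. Neither was called (adjusted p = 0.951 and 0.929, quasi-binomial model). A CpG and its closest measured neighbour were compared in each clone, and the share that differed by at most 10 points was 0.669 at the downstream promoter, 0.703 at the major promoter and 0.658 over all CpGs, at median distances of 10, 5 and 14 bp.

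A single CpG of the downstream promoter was called between the families. It lies at 12026193, 131 bp past the start of Grb10-209, which makes it the closest measured CpG to a start of the promoter. MEF-2 clonal lines had 89.7 to 100% (median 100%, 137 of 143 reads), whereas MEF-1 lines spread from 34.8% (line 5) through 64.0 to 100% (line 7). The families overlapped, with a difference of −30.2 points (quasi-binomial model, adjusted p = 0.00956), and the parental lines had 65.6 and 82.4%. At the opposite edge of the measured CpGs, more than 500 bp from the start, every one of the 7 MEF-1 clones had 100% at the CpG at 12025700. With 0 unmethylated of 114 reads summed over the 7 lines, up to 2.63% unmethylated reads could have been missed. In a single line, with 10 to 26 reads, more could have been missed. The MEF-1 parental line had 78.9% of 19 reads at this CpG. In MEF-2 it ranged from 23.3 through 40 to 81.2% (difference 47.5 points, quasi-binomial model, adjusted p = 0.000251). The former CpG was thus close to full methylation in MEF-2 lines, and the latter in MEF-1 lines.

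**Figure D4:**
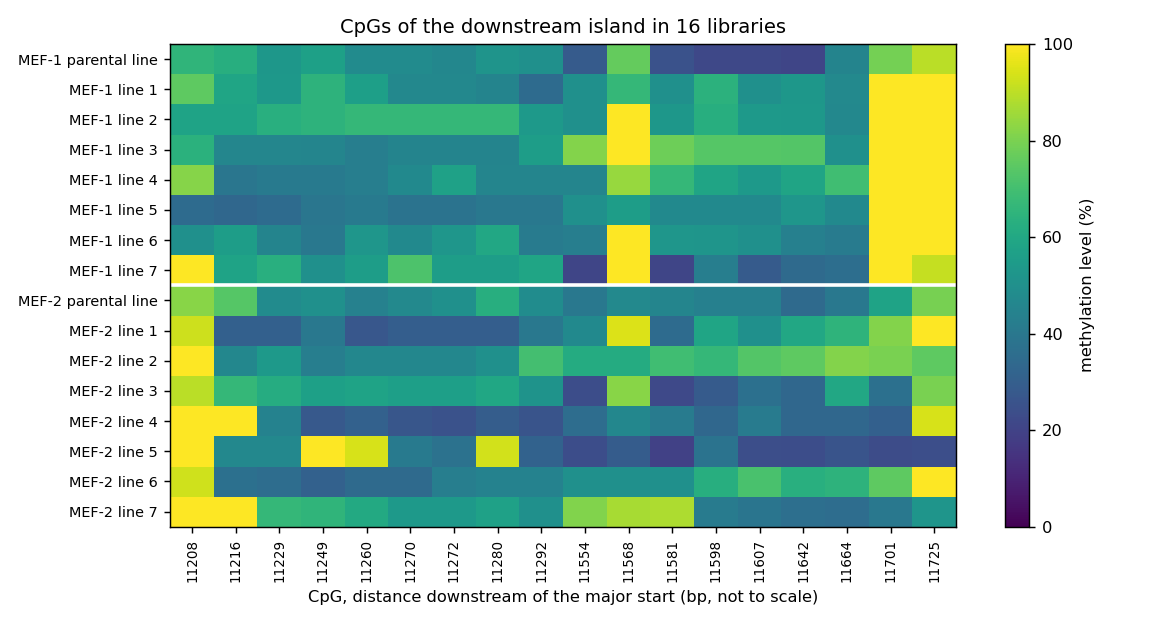
Methylation level of the 18 measured CpGs of the downstream island in 16 libraries (colour, 0 to 100%), ordered by distance from the major start. Most interior columns vary around 50% from line to line, that at 11568 bp is higher (clonal means 86.7% for MEF-1 and 64.4% for MEF-2), the 2 columns at the right edge are at 91 to 100% in the MEF-1 clonal lines, and the left column is at 89.7 to 100% in the MEF-2 clonal lines.

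Whether a clone had left the level of the culture it came from was asked CpG by CpG, with Fisher's exact test on its reads and those of the parental library. The test compares 2 libraries without replicates and takes reads as separate molecules, so that it covers counting error only, and reads that are PCR copies would make its p-values too small. At the downstream promoter no CpG of 11 was called in any MEF-1 line (0 to 2 had an unadjusted p under 0.05), and 0 to 2 were called in a MEF-2 line. At the major promoter 0 or 1 of 19 were called in a MEF-1 line and none in a MEF-2 line (0 to 2 unadjusted). At the upstream start 0 or 1 of 10 were called in a MEF-1 line and 0 to 3 in a MEF-2 line, which is 5.71% ± 5.35 and 14.3% ± 11.3 (SD, n = 7 each). The median CpG had 46 to 70.5 reads per library there, 18 to 37 at the major promoter and 11 to 34 at the downstream promoter. With fewer reads a difference of the same size is harder to call, so few calls at these promoters do not mean a stable level. Over all 169 CpGs a MEF-1 line had 1 to 11 called CpGs and a MEF-2 line 2 to 17, which is 3.38% ± 2.26 and 5.92% ± 2.88 (SD, n = 7 each). Over all CpGs tested, the shares called in MEF-1 lines 1 to 7 were 1.49, 5.53, 4.81, 1.34, 1.54, 4.95 and 4.54%, and those in MEF-2 lines 1 to 7 were 6.58, 6.03, 4.68, 6.39, 7.38, 7.93 and 6.98%. The share in Grb10 was above that of all CpGs in 4 of 7 MEF-1 lines and 2 of 7 MEF-2 lines. It was 0.592% (1 CpG) in MEF-1 line 5 and 1.18% (2 CpGs) in MEF-2 line 3, both under their lines' shares, and 10.1% (17 CpGs) in MEF-2 line 5. These small counts were not tested against the shares over all CpGs.

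The most methylated CpGs lay towards the end of the gene. The end of the gene (37 CpGs, 30 of them in the non-coding part of an exon) had 87.9% ± 1.77 in MEF-1 and 90.8% ± 2.02 in MEF-2, and 27 of its CpGs were at 90% or more in both families. The called CpG with the largest difference of the gene nevertheless lay there. It is at 11933534, in a coding exon, and ranged from 13.9 through 25.9 to 55.6% in MEF-1 and from 86.4 through 96.7 to 100% in MEF-2 (−65.9 points, quasi-binomial model, adjusted p = 2.27e-05). Parental levels of 22.9 and 90% stood on the same sides. The next in size, an intronic CpG outside that stretch at 11961013, had 10.9 to 32.2% in MEF-1 and 50.0 to 94.4% in MEF-2 (−52.5 points, quasi-binomial model, adjusted p = 0.000555). That at 11932014, the fifth by size, went the other way (43.2 points, quasi-binomial model, adjusted p = 0.0118), although MEF-2 line 7, at 49.3%, overlapped the MEF-1 lines, which began at 42.3%.

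Levels near 50% were not limited to the imprinted island. An intronic stretch of 17 CpGs (11973406 to 11975236), which lies 62165 to 63995 bp past the major start and holds no annotated start, had 51.6% ± 4.19 in MEF-1 and 53.2% ± 3.68 in MEF-2 (means ± SD, 7 lines each). All 14 clonal lines were at 40 to 60% there, and the parental lines had 48.5 and 47.8%. The means of both families were at 40 to 60% at 10 of its 17 CpGs. All 7 MEF-2 lines were at 40 to 60% at 4 of them, against 0.215% of all CpGs, and at 5 of the 169 CpGs of the gene. In MEF-1 all 7 lines were there at 4 of 169, against 0.29% of all CpGs, of which 3 lay between 12038054 and 12038084 in the upstream island. None of the CpGs counted in either family was in the downstream promoter. The median CpG had 11 to 34 reads per library there, against 25 to 52 in the intronic stretch. At so few reads, sampling alone seldom leaves all 7 lines at 40 to 60%, so the absence of such CpGs there sets no contrast with the stretch. The last CpG of the stretch, at 11975236, was at 40.9 to 55.6% in MEF-2 and at 0 to 16% in MEF-1.

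A single intronic CpG at 12010290, chosen after its values were seen, was at 40 to 60% in all 14 clonal lines. Its levels were 48.4 through 52.6 to 56.3% in MEF-1 (853 reads) and 41.7 through 47.7 to 52.5% in MEF-2 (1042 reads), with parental levels of 57.4 and 47.6%. Of all CpGs, 76 (0.00631%) met that description. This CpG had 91 to 199 reads in a clonal library, whereas the median over all CpGs was 26 to 37. With fewer reads, sampling alone more often moves a level out of 40 to 60%, so that share is not at like depth. The CpG 26 bp away, at 12010264, was at 91.9 to 98.9% in MEF-1 and at 43.3 to 93.0% in MEF-2 (39.1 points, adjusted p = 0.00139, quasi-binomial model). These neighbours therefore carried different levels in the same MEF-1 libraries.

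**Figure D5:**
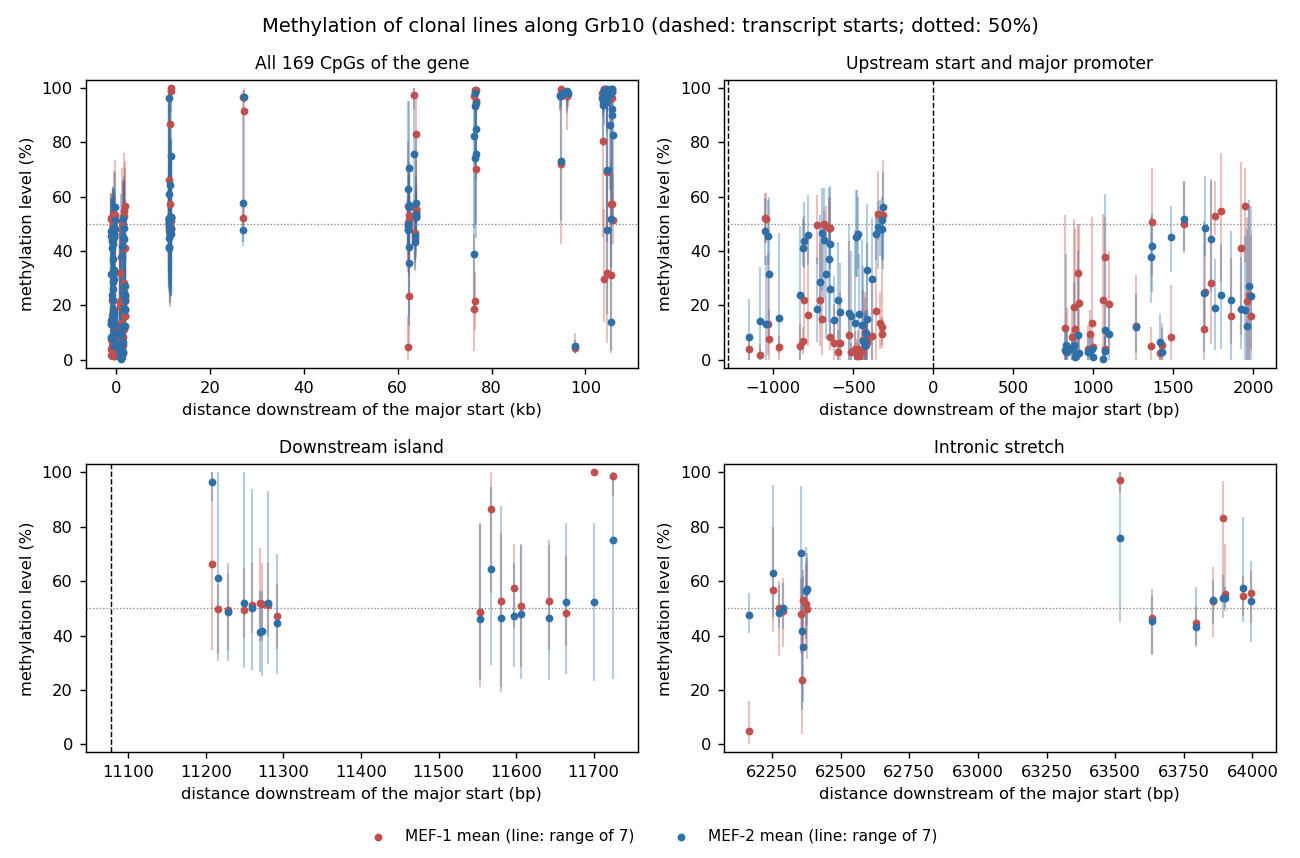
Methylation level (%) of clonal lines along Grb10 against the distance from the major start, for all 169 CpGs (kb) and for the upstream, downstream and intronic stretches (bp), with points for family means and lines for the range of 7 clonal lines. In MEF-1 and MEF-2 the intronic stretch averaged 51.6 and 53.2%, and the downstream island 59.1 and 53.7%. Means near the major start are lower, and most of those past 94 kb are close to 100%.

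Other maternally methylated promoters gave a scale for the downstream promoter. For Mest, Plagl1 and Airn, the start group with the most measured CpGs was taken. Mest (14 CpGs) had 48.8% ± 5.77 in MEF-1 and 48.7% ± 4.18 in MEF-2, Plagl1 (53 CpGs) had 45.7% ± 4.63 and 47.7% ± 9.95, and Airn (6 CpGs) had 47.5% ± 20.7 and 51.8% ± 8.77 (SD, n = 7 each). Grb10 was higher by 2.59 to 9.12 points, but none of the 6 comparisons passed the test (two-sided exact sign-flip tests, adjusted p from 0.234 to 0.594). Single lines carried much of these differences. Without MEF-1 line 1 that to Airn fell from 7.35 to 0.828 points, and without MEF-1 line 6 it was 11.8 points. In MEF-2 it was 0.417 to 5.51 points with a line left out, the lowest without line 3. The difference to Plagl1 in MEF-2 was 3.14 points without line 5 and 10.5 points without line 4, and that to Mest in MEF-1 was 3.06 points without line 2. Airn in MEF-1 spread from 7.90 to 73.1%, further than Grb10 in either family.

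Of 16241 start groups with at least 10 CpGs outside Grb10, the 5 genes with the pattern most like the downstream promoter over the 16 libraries were Gm32540, Art4, Uqcc2, Ptpn22 and Gm38058. Their root mean square differences from it were 6.03, 6.93, 7.14, 7.23 and 7.24 points. Their levels were 51.9 to 57.9% in MEF-1 and 54.5 to 60.2% in MEF-2. The likeness is in the level, and says nothing of imprinting.

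The partners of Grb10 in receptor signalling were looked up at their own starts. Of 30 genes of insulin and insulin-like growth factor signalling, 22 had 32 measured start groups, of which 21 (65.6%) were under 10% in both families, against 49.0% of all start groups. In the model 7 were higher in MEF-1, 2 were higher in MEF-2 and 23 were not called, so that 28.1% were called against 41.2% of all start groups. The median difference was 0.598 points, against 0.448 over all start groups. Pik3r1, a regulatory subunit of phosphoinositide 3-kinase, had 91.3% ± 3.56 in MEF-1 and 58.4% ± 11.9 in MEF-2 (means ± SD, 7 lines each). These values are from 11 CpGs at the only start group of Pik3r1 that was measured. Sh2b1, an adaptor that enhances insulin receptor signalling, had 98.7% ± 0.711 and 70.0% ± 7.80 at 1 of 2 measured start groups. The other, with 12 CpGs, was at 1.16 and 2.75% and was not called. Rptor, a subunit of the mTORC1 kinase complex, had 89.3% ± 5.33 and 69.2% ± 8.88 at 1 of its 3 measured start groups. The others, with 31 and 8 CpGs, were at 1.25 and 1.76% in MEF-1 and at 1.03 and 1.86% in MEF-2, and were not called. Igf1, a ligand of the pathway, was called as lower in MEF-1 at 1 of 2 measured start groups, with 73.1% ± 3.61 against 93.4% ± 4.40 (SD, n = 7 each). Its other start group had 58.0 and 63.2% and was not called. The quasi-binomial model gave adjusted p-values of p = 6.72e-05 for Pik3r1, p = 2.17e-06 for Sh2b1, p = 0.00419 for Rptor and p = 0.000127 for Igf1.

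Among the neighbours of Grb10, 6 of 7 genes had 10 measured start groups, of which 1 was higher in MEF-1, 5 were higher in MEF-2 and 4 were not called. Over all start groups 41.2% were called, 15.4% as higher in MEF-2. The median difference was −3.67 points, against 0.448 over all start groups. Of the 5, Zpbp and Spata48 start 314 bp apart, so that their windows overlap. Zpbp, a sperm protein gene, had 26.8% ± 1.47 in MEF-1 and 41.8% ± 2.69 in MEF-2 (means ± SD, 7 lines each). The difference was −15.0 points (quasi-binomial model, adjusted p = 0.00138). Ddc, the gene next to Grb10 that shares its imprinted domain, was at 80.3 to 95.2% at its 3 measured start groups in both families, and 2 of them were called as higher in MEF-2 (−5.62 and −9.94 points, quasi-binomial model, adjusted p = 0.0396 and 0.00955).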

How the data were processed

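Bisulfite reads of 16 libraries (2 parental lines, 14 clonal lines) were trimmed with Trim Galore 0.6.0 and aligned to mm10 with Bismark by the authors, who kept a mapping quality of at least 10, joined both strands and deposited counts of methylated and unmethylated reads per CpG. Removal of PCR duplicates is not given in the sources used here. 2 further columns of per-sample values were not used. The libraries held 59243669 to 90633091 calls over 4519324 to 5500212 CpG positions. Of these, the CpGs that reached 10 reads in each library were analysed, on the 16 chromosomes that the authors kept. Shares over all CpGs therefore leave out the sex chromosomes and those found aneuploid. Only the read counts entered the analysis, in Python 3.11.15 with numpy 2.4.6, scipy 1.17.1 and numba 0.67.0.

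The level of a promoter was the mean over its CpGs within 500 bp of a start. Islands were merged windows of 200 bp with at least 50% GC, an observed to expected CpG ratio of at least 0.6 and 20 CpGs. Families were compared by quasi-binomial logistic models over the whole table (F-test, dispersion not below 1, Benjamini-Hochberg adjustment, threshold 0.05), which were tested on simulated data, and by two-sided exact permutation and sign-flip tests over lines. Parental libraries were given Wilson intervals, and clonal lines were set against them by Fisher's exact test. Alternatives changed the read minimum, the window, the averaging, the lines included, the test and a block by line number. The members and gene lists were chosen with earlier results of these data known. CpGs were named by rule: at the major and downstream promoters the closest to a start, the largest difference and the lowest fidelity score, then the 5 called CpGs of the gene with the largest differences. Named genes were the 5 most like the downstream promoter and at most 5 called start groups of the lists with the largest differences. Other named CpGs were chosen after their values were seen.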

Additional observations from a re-analysis of the deposited data

Results flagged for a closer look

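The gap between the downstream and the major promoter differed between the families by 19.15 points (two-sided exact permutation test of 7 against 7 lines, p = 0.00524), being 42.7 points for MEF-1 lines and 23.6 points for MEF-2 lines. Over the islands it was 12.1 points (exact permutation test, p = 0.00874). The downstream promoter had 54.8% and 54.4%, and the major promoter 12.1% and 30.8%.

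Over the 3 intronic CpGs from 12010181 to 12010290, MEF-1 line 6 had 66.39%, far below the other MEF-1 clonal lines by Dixon's criterion, under which chance marks about 1 in 20 groups. Among 26 groups tested it was the single one. At 12010181 that line had 50.9%, while the median of the MEF-1 clonal lines was 98.7%. Chromosome 11 had a relative coverage of 0.906 in this library, and its part in the level was not tested.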

How the results depend on the processing

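Of 71 values under alternatives other than leaving out a line, 56 stayed the same, which means the same direction and side of the threshold for a test, a move within 1 SD of the lines for a level, and within 1.5 times for a count. The level of the major promoter over its island was 15.4% for MEF-1 and 22.1% for MEF-2, 23.3% in MEF-2 within 1000 bp, and 5.555% and 9.79% with at least 20 reads, where 1 CpG remained. With the reads of the island pooled, chosen after seeing the data, it was 17.2% and 20.2%. The difference between families in the gap of the promoters was 12.1 points over the islands (exact permutation test, p = 0.00874) and 13.8 points within 1000 bp (exact p = 0.00408). No CpG of the downstream promoter had 20 reads in all libraries, so that this alternative gave no value there. In MEF-1 the distance of the downstream promoter from 50% was −2.04 points with at least 5 reads (exact sign-flip test, p = 0.578), 9.10 points over the island or within 1000 bp (exact p = 0.0313) and 3.14 to 7.22 points with 1 line left out, passing the test without MEF-1 line 5 (7.22 points, exact p = 0.0313). The difference between families at the downstream promoter was −1.25 to 3.11 points with 1 line left out, and it passed the test in none of these fits. With at least 20 reads (93 CpGs) 22 CpGs were called, 9 higher in MEF-1 and 13 in MEF-2. Without MEF-1 lines 1, 4 and 5, an alternative chosen after seeing the data because these lines lay closest to each other over the table, 27 were called, 7 higher in MEF-1. With 1 line left out 35 to 40 were called. Lines of the 2 families share only a number, since same-numbered lines deviated with correlations of −0.00388 to 0.0017 and 0 of 7 MEF-1 lines lay closest to their own number. With that number as a block, 32 CpGs were called, the gap between promoters differed between families by 19.15 points (exact sign-flip test over 7 pairs, p = 0.0156), and the adjusted p (quasi-binomial model) was 0.00176 for the major promoter, 0.0388 for the upstream start and 0.939 for the downstream promoter. Depth limited the downstream promoter most, at 137 to 338 calls per library.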
